A study of Mus musculus with 18 samples.

Results

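Collagen chain genes were described across 18 RNA sequencing libraries from mouse. The labels give the cells as pulmonary microvascular endothelial cells, which form the inner lining of small lung vessels. The genes were all rows whose symbol has the form of a collagen chain, Col followed by a type number, a and a chain number. This gave 35 of the 15288 genes in the table. Levels are in CPM, the reads of a gene scaled to a common total per library. Averaged over all libraries, 22 genes reached 1 CPM and were tested, and 13 lay below and are given as low. The lowest gene inside this limit was Col8a2 at 1.40 CPM and the highest outside it was Col15a1 at 0.902 CPM.

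The cells grew in 60 mm dishes in EGM-2, an endothelial growth medium, with 5% fetal bovine serum. Every group was transfected by lipofection, with 5 ul of a 10 uM stock of either a scrambled small interfering RNA (siRNA) or an siRNA against CYP1B1, a cytochrome P450 that hydroxylates estrogens. After 24 hours the scrambled and the siCYP1B1 cells received vehicle, 1 uM E2 (estradiol) or 1 uM 16aOHE (16-alpha-hydroxyestrone, an estrogen metabolite) for 24 hours in 5% serum. This gave 6 groups of 3 libraries, and the values below are listed per group in the order scrambled vehicle, scrambled E2, scrambled 16aOHE, siCYP1B1 vehicle, siCYP1B1 E2 and siCYP1B1 16aOHE. No group without siRNA was among the samples analysed, so that transfection and a small RNA are common to all. Separate cultures are not stated for the 3 libraries of each group, so the p-values reflect only how far these samples spread, and that spread may be technical.

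Collagens are proteins of the extracellular matrix built from 3 chains wound into a triple helix. The chains of 1 trimer are often products of different genes, and the trimers then assemble into fibrils (collagens I, II, III, V and XI), into the network of basement membranes (collagen IV), into beaded filaments (collagen VI), into hexagonal networks (collagen VIII) or onto the surface of fibrils (collagens IX, XII, XVI and XX among others). In blood vessels, basement membrane collagen underlies the endothelium, and fibrillar collagen fills the layers outside it and gathers there in vascular disease. The mRNA level of a chain does not give the amount of assembled collagen, which was not measured.

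The labelled cell type was checked against defining markers. Of 15 endothelial markers, 10 had a row and 5 reached 1 CPM. Pecam1 and Vwf, classical endothelial genes, averaged 0.0482 and 0.0306 CPM, whereas Flt1, a VEGF receptor, averaged 70.0 CPM. Of 10 mesothelial markers, all had a row and 8 reached 1 CPM, with Msln (mesothelin) at 1521 CPM and Upk3b at 825 CPM, although Calb2 stood at 0.0272 CPM. Smooth muscle cells are named in the series title, and their defining gene Myh11 averaged 0.0765 CPM and Acta2 20.5 CPM. Among fibroblast markers Dcn (decorin) averaged 309 CPM and Lum 0.0428 CPM. The data thus held few reads from the defining endothelial genes, and the cells are called here by their label only. Cyp1b1, the siRNA target, averaged 92.2 ± 3.58 CPM (SD, n = 3) in scrambled and 81.5 ± 0.724 in siCYP1B1 vehicle libraries. This was 11.7% lower, against 12.7% lower under E2 and 15.2% lower under 16aOHE. The means with E2 were 117.6 ± 1.06 CPM in scrambled and 102.6 ± 1.95 in siCYP1B1 libraries. With 16aOHE they were 106.3 ± 1.25 and 90.1 ± 1.39 CPM. Cyp1b1 was thus higher in siCYP1B1 E2 than in scrambled vehicle libraries. The 3 against 3 libraries did not overlap in any arm (2-sided exact permutation p = 0.1, the smallest that 3 against 3 allow). In the limma fit used for the genes below, Cyp1b1 was called lower with siCYP1B1 in each arm. Its adjusted p was 0.000982 with vehicle, 0.000357 with E2 and 5.85e-05 with 16aOHE. Leukocyte markers had 5 of 9 with a row, of which Cd14 at 22.0 and Cd68 at 12.3 CPM reached 1 CPM, and Ptprc stood at 0.0313 CPM. Depth differed between libraries, and 1 CPM stood for 14.1 to 38.5 reads.

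The start regions of collagen genes are shown first for the genes on which the results below turn. Col4a1 and Col4a2 encode the main chains of the basement membrane network and lie head to head on chromosome 8, where their transcripts start on opposite strands and overlap by 22 bases. The RefSeq promoter windows of GRCm38.p6 (250 bases before the start to 50 after it) of this pair share 78 bases, from 11312777 to 11312854. Col3a1 and Col1a2, chains of collagens III and I, are shown because both were lower in all 8 comparisons with scrambled or vehicle libraries. Capitals mark the TATA box letters TATAAA, the CAAT box letters CCAAT and the GC box letters GGGCGG on either strand.
Col4a2, chr8:11312555-11312854, plus strand: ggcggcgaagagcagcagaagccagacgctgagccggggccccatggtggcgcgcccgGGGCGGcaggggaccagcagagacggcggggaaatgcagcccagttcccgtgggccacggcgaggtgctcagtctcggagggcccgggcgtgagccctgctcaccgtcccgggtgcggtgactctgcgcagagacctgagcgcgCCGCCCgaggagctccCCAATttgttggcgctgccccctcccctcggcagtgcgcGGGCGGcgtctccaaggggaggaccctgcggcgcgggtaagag
Col3a1, chr1:45311288-45311587, plus strand: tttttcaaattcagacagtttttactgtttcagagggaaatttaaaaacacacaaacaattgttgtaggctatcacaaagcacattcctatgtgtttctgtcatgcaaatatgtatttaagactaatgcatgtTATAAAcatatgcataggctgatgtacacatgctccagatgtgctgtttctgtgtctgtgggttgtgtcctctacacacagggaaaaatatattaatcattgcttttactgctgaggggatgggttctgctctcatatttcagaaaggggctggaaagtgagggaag
Col1a2, chr6:4505368-4505667, plus strand: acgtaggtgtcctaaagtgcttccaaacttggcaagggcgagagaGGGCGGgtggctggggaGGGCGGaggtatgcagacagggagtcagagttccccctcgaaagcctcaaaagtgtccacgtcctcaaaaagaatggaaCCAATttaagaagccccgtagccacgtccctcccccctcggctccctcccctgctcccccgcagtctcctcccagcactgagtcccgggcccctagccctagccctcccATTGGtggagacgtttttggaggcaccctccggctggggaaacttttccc

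In the Col4a2 window CCAAT began at base -32 from the start, and GGGCGG at -192 and 8 as printed and at -48 on the other strand. The match at 8 lay within the bases shared with Col4a1. The Col3a1 window held 1 TATAAA, which began at -117 from the RefSeq start, and neither of the other motifs. Col1a2 had CCAAT at -109 and, on the other strand, at 1, with GGGCGG at -205 and -188. Of the 22 tested genes, 17 had a RefSeq window. GGGCGG was in the windows of 14 of these 17, against 71% of the 9320 tested genes with a window and 35.7% of all 32851 windows. CCAAT was in 8 of 17, against 43.6% and 37.4%, and TATAAA in 2 of 17 (Col3a1 and Col11a2), against 8.34% and 13.6%. GCGTG, the core of the element bound by the aryl hydrocarbon receptor, was in 5 of 17 (Col4a1, Col4a2, Col6a2, Col11a2 and Col16a1), against 57.2% and 32.4%. The full palindromic estrogen response element, with any 3 bases between its arms, was in 0 of 17 and in 23 of all 32851 windows (0.07%). Both strands were searched, and matches of different motifs were counted where they shared bases. These are matches of letters in 300 bases and not sites of binding.

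Collagen mRNAs are known targets of the miR-29 family, whose seeds (bases 2 to 8, in capitals) are identical. The mature sequences from RefSeq are printed because their 7-base match was in most collagen 3′ untranslated regions (UTRs) searched.
mmu-miR-29a-3p: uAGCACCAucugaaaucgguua
mmu-miR-29b-3p: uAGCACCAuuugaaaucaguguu
mmu-miR-29c-3p: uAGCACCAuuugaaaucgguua

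The match TGGTGCT lay in the GENCODE M21 3′ UTR of 14 of the 21 tested collagen genes with such a UTR (66.7%), against 16% of 11373 tested genes, with median UTR lengths of 1110 and 1180 bases. It was in 8 of the 11 genes lower with siCYP1B1 in the average over the 3 estrogen arms, in 3 of the 4 higher and in 3 of the 6 others searched. The match was therefore present in genes on both sides of that comparison. Sites of 5 genes are shown with the match in capitals, in GRCm38 coordinates, for chains that were lower (Col3a1, Col1a1 and Col5a2) and higher (Col4a1 and Col4a2). miRNA levels were not measured.
Col3a1, chr1:45348974-45348996, plus strand: tgtctcaaTGGTGCTataataaa
Col1a1, chr11:94952530-94952552, plus strand: ggaatttcTGGTGCTatagaagc
Col5a2, chr1:45374958-45374980, minus strand: tttaatgaTGGTGCTaaaattat
Col4a1, chr8:11199754-11199776, minus strand: tcacaacaTGGTGCTactccccc
Col4a2, chr8:11448351-11448373, plus strand: ggccacgtTGGTGCTtatccttc

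A second 7-base word, AAAGTCA, was searched in the same 3′ UTRs. It was picked on these same libraries, so that its share among collagen genes is no independent evidence. It was in 3 of the 11 lower collagen genes (Col6a2, Col8a1 and Col11a1), in 0 of the 4 higher and in 0 of the 6 others, against 15.4% of tested genes, 26.2% of lower genes and 8.77% of higher genes. The median UTR of lower genes was longer, 1540 bases against 941 in higher genes. The other word, TGGTGCT, was in 17.2% of lower genes and 14.9% of higher genes. The part of UTR length in these shares was not tested. The AAAGTCA site in each of the 3 genes is shown with the word in capitals.
Col6a2, chr10:76598422-76598444, minus strand: ctcactgcAAAGTCAccaagacc
Col8a1, chr16:57625821-57625843, minus strand: gaggttccAAAGTCAattgccaa
Col11a1, chr3:114219942-114219964, plus strand: ctgtttcaAAAGTCAtatttgct

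**Figure D1:**
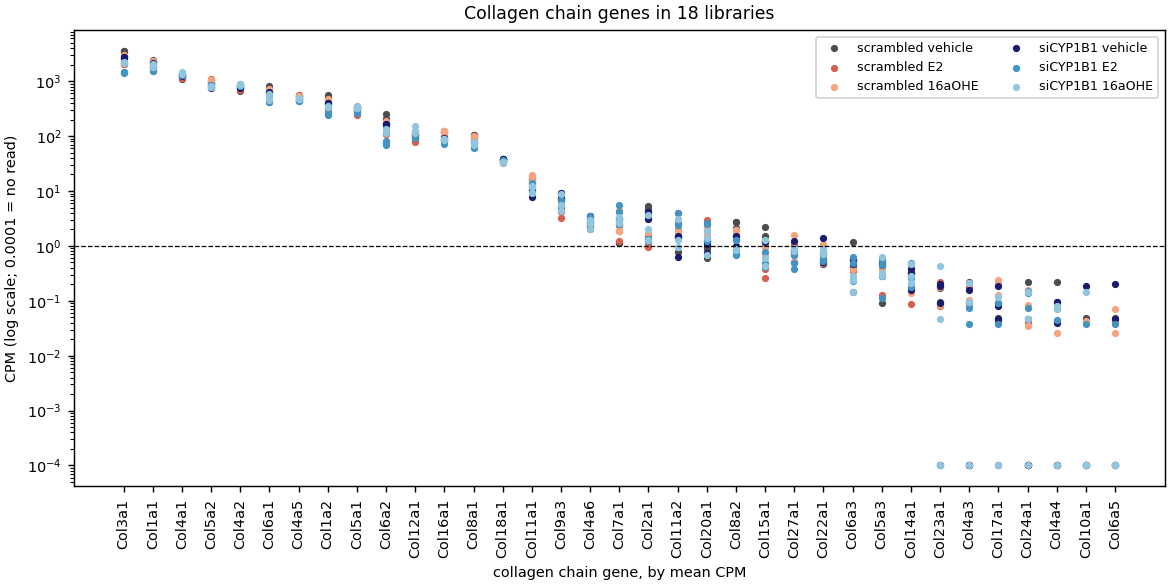
CPM (log axis) of the 35 collagen chain genes in each of 18 libraries, ordered by mean, with colours for the 6 groups. The dashed line is 1 CPM and points at 0.0001 are libraries with no read. Col3a1 and Col1a1 averaged 2488 and 1946 CPM, 13 genes lay below 1 CPM, and 7 of those had no read in 4 to 11 libraries.

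Collagen mRNAs made up 0.768% to 1.18% of the reads of a library. This share was 1.14% ± 0.0326 (SD, n = 3) in scrambled vehicle, 0.900% ± 0.0474 in scrambled E2 and 1.08% ± 0.0295 in scrambled 16aOHE. In siCYP1B1 it was 0.991% ± 0.0302 with vehicle, 0.780% ± 0.0127 with E2 and 0.936% ± 0.00224 with 16aOHE. The share was thus lowest in the siCYP1B1 E2 libraries and highest in scrambled vehicle. The 6 most abundant genes (Col3a1, Col1a1, Col4a1, Col5a2, Col4a2 and Col6a1) held 81.9% to 83.1% of it in every library. Per kilobase of transcript the mean levels were 447 CPM for Col3a1, 328 for Col1a1 and 195 for Col4a1. Next in that order came Col6a1 at 145, Col5a2 at 136, Col4a2 at 124, Col4a5 at 76.6, Col1a2 at 71.7, Col5a1 at 37.0 and Col6a2 at 31.6 CPM per kilobase. Fibril-forming chains had 8 of 11 genes tested, basement membrane chains 4 of 6, fibril-associated chains 4 of 6, beaded filament chains 2 of 4, short-chain network chains 2 of 3 and multiplexins 1 of 2. Col7a1 of anchoring fibrils was tested, and both transmembrane collagens were low.

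In the average over the 3 arms, 5 of 8 fibril-forming chains and both tested chains each of collagens VI and VIII were lower with siCYP1B1, and the basement membrane pair Col4a1 and Col4a2 was higher by 0.13 and 0.16 on the log2 scale. In all, 11 of the 22 tested genes were lower, while 18.2% of all 11835 tested genes were. They were Col1a1, Col1a2, Col3a1, Col5a2, Col11a1, Col6a1, Col6a2, Col4a5, Col8a1, Col8a2 and Col16a1. Of these, Col8a2 averaged 2.49, 1.46 and 1.60 CPM in scrambled and 1.11, 0.885 and 0.859 in siCYP1B1 cells with vehicle, E2 and 16aOHE. Its place among the tested genes thus rested on the scrambled libraries, and of the single arms only vehicle was called. Col4a1, Col4a2, Col7a1 and Col12a1 were higher, 4 of 22, against 26.5% of all tested genes. The median log2 fold change of the tested collagen genes was -0.16 and that of all tested genes 0.026. In the vehicle arm alone 10 genes were lower (9.12% of all genes) and 3 higher (11.5%). Under E2 the counts were 9 lower (9.8%) and 2 higher (11.4%), and under 16aOHE 9 lower (9.31%) and 2 higher (10.4%). The arms share no library, and 9 genes were lower in each of the 3. How many of all genes were lower in each of the 3 was not counted, so this overlap is not read as particular to collagens. In the vehicle arm the 3 higher calls were not made with median-of-ratios scaling, which left 10 lower and 0 higher. Over all genes the balance turned with that scaling, from 1358 higher and 1079 lower to 874 and 1271 in the vehicle arm, from 1346 and 1160 to 914 and 1335 under E2, and from 3140 and 2156 to 2426 and 2480 in the average, where the collagen counts stayed at 4 and 11.

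E2 lowered 5 of 8 fibril-forming chains and both tested collagen VI chains in each siRNA, and 0 of 4 basement membrane chains in scrambled and 1 of 4 in siCYP1B1 cells. In scrambled cells 12 of 22 genes fell, against 11.4% of all genes, and 2 rose, against 18.6%. In siCYP1B1 cells 10 fell (10.8% of all genes) and 2 rose (16.7%). These comparisons share no library: 9 genes fell in both, which is 9 of the 12 and 9 of the 10, and Col11a2 and Col20a1 rose in both. The overlap over all genes was not counted, so that of the collagen genes is not read as particular to them. The 9 were Col1a1, Col1a2, Col2a1, Col3a1, Col5a1, Col6a1, Col6a2, Col8a1 and Col16a1. Median log2 fold changes of the collagen genes were -0.22 in scrambled and -0.14 in siCYP1B1, against 0.034 and 0.038 over all tested genes. Here too the all-gene balance turned with median-of-ratios scaling, from 2199 higher and 1349 lower to 1516 and 1786 in scrambled cells and from 1971 and 1283 to 1342 and 1662 in siCYP1B1 cells. With quantile normalization it was 1654 and 1588 in scrambled cells. The collagen counts in scrambled cells were then 1 higher and 12 lower with median-of-ratios scaling and 3 and 12 with quantile normalization.

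16aOHE at the same concentration and time gave fewer calls. In scrambled cells Col3a1, Col1a2 and Col6a2 fell, 3 of 22 (2.08% of all genes fell), and Col4a2 rose, 1 of 22 (1.76%). In siCYP1B1 cells Col3a1, Col1a2, Col6a1, Col6a2 and Col18a1 fell, 5 of 22 (2.86%), and 0 rose (2.53%). These counts rest on calls near the threshold. The count of 4 in scrambled cells was 1 without the mean trend in the spread. It was 2 without scrambled vehicle 1, scrambled vehicle 2, scrambled 16aOHE 2 or scrambled 16aOHE 3, and 1 without scrambled 16aOHE 1. The count of 5 in siCYP1B1 cells was 3 without siCYP1B1 vehicle 2, siCYP1B1 vehicle 3 or siCYP1B1 16aOHE 2 and 8 without siCYP1B1 16aOHE 1.

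**Figure D2:**
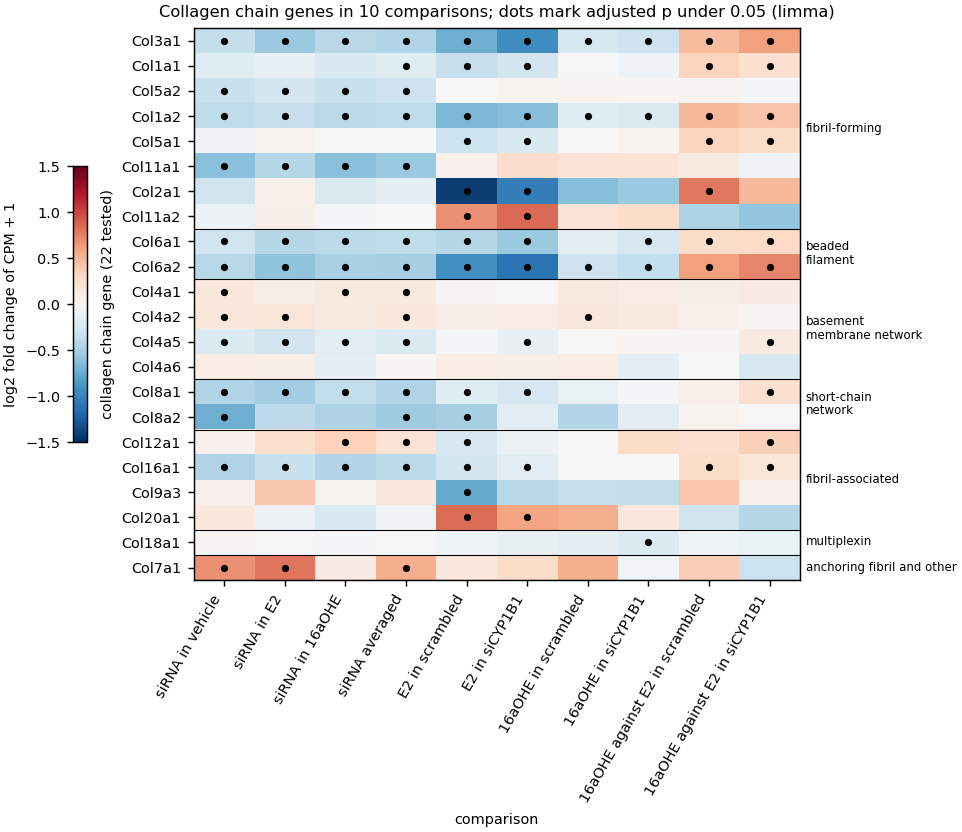
Log2 fold changes of CPM + 1 of the 22 tested collagen genes (rows, by class) in 10 comparisons (columns), blue for lower and red for higher, with dots at adjusted p under 0.05. Col3a1, Col1a2 and Col6a2 were lower in all 8 comparisons with scrambled or vehicle libraries, and Col5a2 and Col11a1 were called in the 4 siRNA columns and in none of the other 6.

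Markers of some other cell types moved in the same comparisons, in which 18.2% (siRNA average), 11.4% (E2 in scrambled cells) and 2.08% (16aOHE in scrambled cells) of all genes were lower. In the siRNA average 7 of 8 tested mesothelial markers, 4 of 5 fibroblast and pericyte markers, 3 of 3 smooth muscle markers and 2 of 5 endothelial markers were lower, and 0 of these were higher. With quantile normalization 2 of 5 fibroblast and pericyte markers were lower. With E2 in scrambled cells 7 of 8 mesothelial, 2 of 5 fibroblast and pericyte, 1 of 3 smooth muscle and 3 of 5 endothelial markers fell, and 1 fibroblast and pericyte marker rose. With 16aOHE in scrambled cells 3 of 8 mesothelial, 1 of 5 fibroblast and pericyte, 1 of 3 smooth muscle and 1 of 5 endothelial markers fell. Of 2 tested leukocyte markers 0 were called in these comparisons. Of 2 tested chondrocyte markers 1 was higher in the siRNA average, where 26.5% of all genes were, and 0 were called with either estrogen in scrambled cells. The summed CPM of the mesothelial markers was 5805 to 5885 in scrambled vehicle, 4604 to 4770 in scrambled E2, 5329 to 5544 in scrambled 16aOHE, 4474 to 4657 in siCYP1B1 vehicle, 3630 to 3695 in siCYP1B1 E2 and 4160 to 4336 in siCYP1B1 16aOHE. For fibroblast and pericyte markers, collagens left out, the sums were 726 to 796, 582 to 626, 643 to 686, 546 to 598, 424 to 452 and 493 to 528 in the same order. The endothelial sums were 132 to 135, 94.4 to 104, 111 to 114, 106 to 107, 75.8 to 80.7 and 87.5 to 101, and the smooth muscle sums ranged from 96.9 to 137 over all libraries. The mesothelial, endothelial and fibroblast sums were lowest in siCYP1B1 E2 and highest in scrambled vehicle, as the summed fibril-forming collagens were (4407 ± 109 and 7604 ± 259 CPM), and their part in the collagen results was not tested. In bulk RNA, fewer cells of a type and less RNA per cell cannot be told apart.

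Among fibril-forming chains, Col3a1 (chr1:45311538-45349706 in the deposited table, mm10) encodes the only chain of collagen III, which is abundant in vessel walls. Col3a1 stood at 3548, 3426 and 3555 CPM in scrambled vehicle, 2098, 2167 and 2083 in scrambled E2 and 2874, 2932 and 3000 in scrambled 16aOHE. With siCYP1B1 it stood at 2721, 2798 and 2670 CPM with vehicle, 1392, 1446 and 1464 with E2 and 2147, 2182 and 2278 with 16aOHE. Each siCYP1B1 group lay below the scrambled group of the same arm, and both E2 groups below their vehicle groups, without overlap. Its log2 fold change in the siRNA average was -0.45, SE 0.0195, adjusted p = 2.08e-13. With E2 the mean fell by 39.7% in scrambled cells (-0.73, SE 0.0337, adjusted p = 2.21e-12) and fell by 47.5% in siCYP1B1 cells (-0.93, SE 0.0337, adjusted p = 4.38e-14). With 16aOHE it fell by 16.4% (-0.26, SE 0.0337, adjusted p = 5.45e-05) in scrambled and fell by 19.3% in siCYP1B1 cells (-0.31, adjusted p = 6.4e-06). All calls on this gene were kept under every alternative run.

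Collagen I is the main protein of most fibrils and is made of chains from Col1a1 and Col1a2. Col1a2 (chr6:4505618-4541543) stood at 496, 516 and 553 CPM in scrambled vehicle, 347, 331 and 300.0 in scrambled E2 and 450.1, 446 and 469 in scrambled 16aOHE. The siCYP1B1 values were 406, 409 and 383 CPM with vehicle, 260.4, 261 and 247 with E2 and 333, 354 and 346 with 16aOHE. The siCYP1B1 E2 libraries were lowest and the scrambled vehicle libraries highest, with no overlap between arms in any of these comparisons. The log2 fold change was -0.38, SE 0.0274, adjusted p = 5.75e-10 in the siRNA average and -0.68, SE 0.0474, adjusted p = 1.74e-09 for E2 in scrambled cells, where the mean fell by 37.5%. E2 in siCYP1B1 cells gave -0.64, adjusted p = 3.99e-09. With 16aOHE it was -0.20, adjusted p = 0.0207 in scrambled and -0.21, adjusted p = 0.0091 in siCYP1B1 cells. The call in scrambled cells was lost without scrambled vehicle 2 or 3, without scrambled 16aOHE 1 or 2 and without the mean trend.

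Col1a1 (chr11:94936224-94953042) had smaller fold changes than its partner in the siRNA average and with E2. It stood at 2103, 2195 and 2387 CPM in scrambled vehicle, 2028, 1721 and 1537 in scrambled E2 and 2299, 2024 and 2334 in scrambled 16aOHE, and at 2112, 1922 and 1851 CPM with vehicle, 1725, 1572 and 1532 with E2 and 2056, 1825 and 1808 with 16aOHE in the siCYP1B1 groups. The values with E2 lay below those with vehicle in both siRNAs. The log2 fold change with E2 was -0.35, SE 0.0801, adjusted p = 0.00249 in scrambled and -0.28, adjusted p = 0.0112 in siCYP1B1 cells, the latter lost without siCYP1B1 vehicle 1 or siCYP1B1 E2 3. The siRNA average gave -0.18, SE 0.0462, adjusted p = 0.00365, and no single arm was called. With 16aOHE the intervals were -0.17 to 0.16 in scrambled and -0.22 to 0.12 in siCYP1B1 cells.

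**Figure D3:**
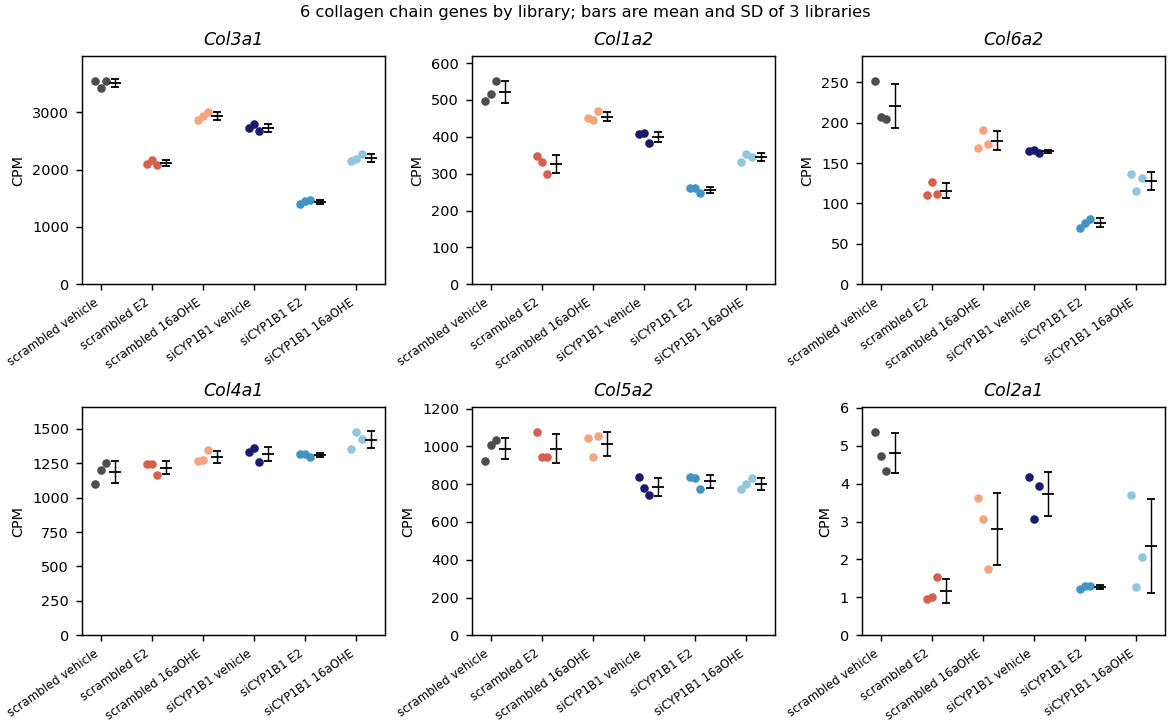
CPM of Col3a1, Col1a2, Col6a2, Col4a1, Col5a2 and Col2a1 in each library (points) with the mean and SD of 3 libraries per group (bars), on axes that start at 0. Col3a1 ranged from 3426 to 3555 CPM in scrambled vehicle and from 1392 to 1464 CPM in siCYP1B1 E2, while Col5a2 separated the siRNAs and not the estrogens.

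Collagen V chains, which regulate the start and width of collagen I fibrils, split by comparison. Col5a2 (chr1:45374331-45503282) stood at 925, 1007 and 1033 CPM in scrambled vehicle, 1078, 942 and 945 in scrambled E2 and 1043, 942 and 1056 in scrambled 16aOHE. In siCYP1B1 it stood at 838, 781 and 741 CPM with vehicle, 836, 832 and 775 with E2 and 773, 800.1 and 835 with 16aOHE. All 9 siCYP1B1 values lay below all 9 scrambled values. The siRNA average was -0.31, SE 0.0332, adjusted p = 1.63e-07. For E2 in scrambled cells the fold change was -0.00095 with an interval of -0.12 to 0.12, and for E2 in siCYP1B1 cells the interval was -0.068 to 0.17.

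Col5a1 (chr2:27886425-28039510) showed the other pattern. It stood at 317, 338 and 346 CPM in scrambled vehicle, 283, 273 and 243 with E2 and 332, 322 and 350.4 with 16aOHE, and at 338, 324 and 306 CPM with vehicle, 284, 274 and 268 with E2 and 328, 353 and 324 with 16aOHE in siCYP1B1. The E2 libraries were the low ones in both siRNAs, without overlap with vehicle. E2 gave -0.33, SE 0.0522, adjusted p = 7.46e-05 in scrambled and -0.23, SE 0.0522, adjusted p = 0.00257 in siCYP1B1 cells. The siRNA average had an interval of -0.061 to 0.064. 16aOHE had intervals of -0.10 to 0.11 in scrambled and -0.056 to 0.16 in siCYP1B1 cells.

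Col11a1, a minor chain of cartilage-type fibrils, was lower with siCYP1B1 and was not called for either estrogen. It stood at 12.9, 15.9 and 16.6 CPM in scrambled vehicle, 18.5, 14.6 and 14.6 with E2 and 18.2, 15.0 and 19.6 with 16aOHE, and at 10.5, 10.4 and 7.64 CPM with vehicle, 13.8, 11.6 and 9.44 with E2 and 9.31, 12.2 and 11.8 with 16aOHE in siCYP1B1. The siCYP1B1 libraries of each arm lay below the scrambled ones. Averaged over the arms, the siRNA difference was -0.56, SE 0.0821, adjusted p = 1.26e-05. Under E2 alone the siRNA call (-0.43, adjusted p = 0.0358) was lost in 5 settings, among them without scrambled E2 1, siCYP1B1 E2 2 or siCYP1B1 E2 3.

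Col2a1, the chain of cartilage collagen II, had the lowest of the log2 fold changes with E2 in scrambled cells. It stood at 5.37, 4.72 and 4.34 CPM in scrambled vehicle, 0.964, 1.02 and 1.54 with E2 and 3.61, 3.07 and 1.75 with 16aOHE, and at 4.16, 3.08 and 3.94 CPM with vehicle, 1.22, 1.31 and 1.31 with E2 and 3.70, 1.27 and 2.07 with 16aOHE in siCYP1B1. Both E2 groups stayed below 2 CPM and below all vehicle libraries. The mean fell by 75.6% in scrambled (-1.42, SE 0.207, adjusted p = 2.84e-05) and fell by 65.6% in siCYP1B1 cells (-1.04, SE 0.207, adjusted p = 0.000759). On the log2(CPM + 1) scale these fold changes understate the change of so low a gene. Of 9 other chondrocyte markers 7 had a row. Sox9 averaged 14.1 CPM and Comp 0.170 CPM, and the sums in scrambled cells were 30.2 to 37.0 CPM with vehicle and 34.5 to 37.5 with E2.

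Col11a2, a partner chain of collagen XI, was higher with E2. It stood at 1.92, 0.779 and 1.37 CPM in scrambled vehicle, 3.90, 2.61 and 1.88 with E2 and 1.87, 1.46 and 1.67 with 16aOHE, and at 1.47, 1.54 and 0.641 CPM with vehicle, 4.03, 2.44 and 2.51 with E2 and 3.13, 0.943 and 1.27 with 16aOHE in siCYP1B1. The groups overlapped in scrambled cells and not in siCYP1B1 cells. E2 gave 0.68, adjusted p = 0.047 and 0.85, adjusted p = 0.0157. The first call was lost in 8 settings, among them without scrambled vehicle 2 or 3 or scrambled E2 1 or 2, and the second without siCYP1B1 vehicle 3 or siCYP1B1 E2 1.

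Collagen VI forms beaded filaments near the cell surface, in which the Col6a1 and Col6a2 chains join a further chain such as that of Col6a3. Col6a2 (chr10:76595756-76623630) stood at 252, 207 and 204 CPM in scrambled vehicle, 110.0, 127 and 111 in scrambled E2 and 169, 191 and 174 in scrambled 16aOHE. With siCYP1B1 it stood at 165, 166 and 162 CPM with vehicle, 70.0, 76.2 and 81.3 with E2 and 136, 115 and 131 with 16aOHE. Every E2 library lay below every vehicle library of its siRNA, and every siCYP1B1 library below the scrambled libraries of its arm. With E2 the mean fell by 47.5% in scrambled (-0.92, SE 0.0761, adjusted p = 1.91e-08) and fell by 53.8% in siCYP1B1 cells (-1.11, SE 0.0761, adjusted p = 1.5e-09). For the siRNA average it was -0.50, SE 0.0439, adjusted p = 9.61e-09. With 16aOHE it was -0.31, adjusted p = 0.024 in scrambled and -0.37, adjusted p = 0.00542 in siCYP1B1 cells, and the call in scrambled cells was lost without scrambled vehicle 1, scrambled 16aOHE 1 or 3, or the mean trend.

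Col6a1 (chr10:76708792-76726044) was lower in the same siRNA and E2 comparisons, with smaller fold changes. It stood at 821, 744 and 725 CPM in scrambled vehicle, 560.5, 609 and 529.6 with E2 and 673, 726 and 656 with 16aOHE, and at 609, 624 and 622 CPM with vehicle, 412, 416 and 435 with E2 and 578, 463 and 519 with 16aOHE in siCYP1B1. The siCYP1B1 E2 libraries were the lowest of all 18. E2 gave -0.43, SE 0.0631, adjusted p = 3.02e-05 in scrambled and -0.55, SE 0.0631, adjusted p = 1.5e-06 in siCYP1B1 cells, and the siRNA average -0.38, SE 0.0364, adjusted p = 4.54e-08. For 16aOHE the change was -0.16, adjusted p = 0.223 in scrambled cells and -0.25, adjusted p = 0.0195 in siCYP1B1 cells. The possible partner chains with a row were low: Col6a3 averaged 0.459 CPM and Col6a5 0.0285 CPM. Col6a4 and Col6a6 had no row.

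Collagen IV chains form the sheet under endothelium and other cell layers. Col4a1 (chr8:11198423-11312826) stood at 1095, 1203 and 1253 CPM in scrambled vehicle, 1242, 1246 and 1165 in scrambled E2 and 1269, 1274 and 1347 in scrambled 16aOHE. In siCYP1B1 the values were 1332, 1358 and 1261 CPM with vehicle, 1317, 1315 and 1292 with E2 and 1356, 1479 and 1426 with 16aOHE. The siCYP1B1 values were the higher ones in each arm, without overlap. The siRNA average was 0.13, SE 0.0262, adjusted p = 0.000388. In single arms the call under vehicle (0.16, adjusted p = 0.0191) was lost with median-of-ratios scaling and without scrambled vehicle 1, siCYP1B1 vehicle 1 or siCYP1B1 vehicle 2, and that under 16aOHE (0.13, adjusted p = 0.046) in 9 settings. E2 had intervals of -0.052 to 0.14 in scrambled and -0.10 to 0.085 in siCYP1B1 cells.

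Col4a2 (chr8:11312805-11449287), transcribed from the other strand of the same start region, was higher in the same average. It stood at 659, 723 and 746 CPM in scrambled vehicle, 791, 798 and 695 with E2 and 791, 786 and 820.1 with 16aOHE, and at 811, 810.4 and 762 CPM with vehicle, 885, 861 and 834 with E2 and 866, 898 and 868 with 16aOHE in siCYP1B1. The lowest library of all was a scrambled vehicle one. The siRNA average was 0.16, SE 0.0281, adjusted p = 9.98e-05. Of the single arms, vehicle and E2 were called for the siRNA. The call under vehicle was lost with median-of-ratios scaling, without the mean trend and without scrambled vehicle 1, siCYP1B1 vehicle 1 or siCYP1B1 vehicle 2. That under E2 was lost without scrambled E2 3 or siCYP1B1 E2 1. 16aOHE in scrambled cells gave 0.17, adjusted p = 0.0482, a call lost in 8 settings that included leaving out scrambled vehicle 1 or 2 or any of the scrambled 16aOHE libraries.

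Col4a5 and Col4a6 lie head to head on chromosome X with 1342 bases between them, and differed in level by far. Col4a5, whose product joins those of Col4a3 and Col4a4 or of Col4a6, stood at 527, 548 and 550.2 CPM in scrambled vehicle, 512, 555 and 533 with E2 and 531, 543 and 549 with 16aOHE. In siCYP1B1 it stood at 460.2, 482 and 471 CPM with vehicle, 430.4, 438 and 443 with E2 and 468, 490.4 and 480.3 with 16aOHE. All 9 siCYP1B1 values lay below all 9 scrambled values, in the opposite direction to Col4a1 and Col4a2. Over the 3 arms the siRNA average was -0.22, SE 0.0191, adjusted p = 8.22e-09. E2 in siCYP1B1 cells gave -0.11, adjusted p = 0.0183, lost with quantile normalization and without siCYP1B1 vehicle 2 or siCYP1B1 E2 1. Col4a6 ranged from 1.99 to 3.50 CPM and was the only tested collagen gene called in none of the 10 comparisons. Col4a3 and Col4a4, with 71 bases between their starts on chromosome 1, averaged 0.0910 and 0.0476 CPM.

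Collagen VIII is a short-chain collagen of the subendothelial network. Col8a1 (chr16:57624256-57754737) stood at 104, 102 and 106 CPM in scrambled vehicle, 93.9, 93.1 and 88.2 with E2 and 96.1, 95.6 and 99.4 with 16aOHE, and at 75.3, 75.6 and 76.7 CPM with vehicle, 63.5, 61.4 and 65.5 with E2 and 67.8, 78.9 and 79.3 with 16aOHE in siCYP1B1. All 9 siCYP1B1 values lay below all 9 scrambled values. Its siRNA average was -0.45, SE 0.0281, adjusted p = 6.47e-11. E2 gave smaller changes, -0.18, adjusted p = 0.00793 in scrambled and -0.25, adjusted p = 0.00055 in siCYP1B1 cells. Its partner Col8a2 stood at 2.68, 2.08 and 2.70 CPM in scrambled vehicle, 1.58, 1.26 and 1.54 with E2 and 1.91, 0.936 and 1.97 with 16aOHE. In siCYP1B1 it stood at 0.833, 0.980 and 1.51 CPM with vehicle, 1.27, 0.712 and 0.675 with E2 and 0.853, 0.849 and 0.876 with 16aOHE. Of the single arms only vehicle was called for the siRNA (-0.73, adjusted p = 0.00454), with -0.40, adjusted p = 0.11 under E2, where the groups overlapped, and -0.46, adjusted p = 0.0668 under 16aOHE. For Col8a2 the siRNA average was -0.53, SE 0.0997, adjusted p = 0.000196, and the call with E2 in scrambled cells (-0.50, adjusted p = 0.0329) was lost in 6 settings, among them without scrambled vehicle 1 or 3 or any of the scrambled E2 libraries.

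Fibril-associated chains had no common direction. Col16a1 stood at 125, 119.8 and 117 CPM in scrambled vehicle, 102, 96.4 and 97.5 with E2 and 124, 113 and 122 with 16aOHE, and at 94.2, 85.8 and 83.3 CPM with vehicle, 86.1, 77.1 and 71.1 with E2 and 90.4, 88.7 and 85.8 with 16aOHE in siCYP1B1. Its siCYP1B1 values lay below the scrambled ones in each arm, with an average of -0.41, SE 0.0331, adjusted p = 3.04e-09. E2 gave -0.29, adjusted p = 0.000661 in scrambled and -0.17, adjusted p = 0.0323 in siCYP1B1 cells, the latter lost in 4 settings, among them without siCYP1B1 vehicle 1 or siCYP1B1 E2 2 or 3. Col12a1, a chain of dense connective tissue, was higher in the siRNA average (0.22, SE 0.0541, adjusted p = 0.0025). The siCYP1B1 16aOHE libraries of this gene held 114, 150.0 and 122 CPM against 99.0, 100.5 and 102 in scrambled 16aOHE, and the call in that arm (0.35, adjusted p = 0.0125), the only arm called, was lost without siCYP1B1 16aOHE 2, the highest library. Its call with E2 in scrambled cells (-0.26, adjusted p = 0.0423) was lost in 6 settings, among them without scrambled vehicle 2 or 3 or scrambled E2 1 or 3.

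Col9a3 and Col20a1 lie on the same strand of chromosome 2 with 364349 bases between them and moved in opposite directions with E2. Col9a3, a chain of cartilage collagen IX, stood at 9.11, 6.64 and 7.09 CPM in scrambled vehicle and 4.92, 3.26 and 4.11 with E2 (-0.76, SE 0.173, adjusted p = 0.00226). Its siCYP1B1 values were 9.34, 7.03 and 7.55 CPM with vehicle and 6.76, 5.10 and 5.26 with E2, which did not pass (-0.42, adjusted p = 0.0774). Col20a1 stood at 0.959, 0.865 and 0.594 CPM in scrambled vehicle and 2.94, 2.44 and 1.46 with E2 (0.84, SE 0.213, adjusted p = 0.00516), and in siCYP1B1 at 1.07, 0.747 and 1.24 and 2.58, 2.47 and 1.24 (0.59, adjusted p = 0.0427). The scrambled vehicle libraries of Col20a1 stayed below 1 CPM and the E2 libraries above it. The call in siCYP1B1 cells was lost in 7 settings, among them without any of the siCYP1B1 vehicle libraries or siCYP1B1 E2 1 or 2.

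Col18a1, the multiplexin whose end fragment is endostatin, ranged from 31.9 to 38.9 CPM over all libraries. It had 1 call: with 16aOHE in siCYP1B1 cells it fell from 37.9, 38.4 and 38.9 to 34.1, 33.3 and 32.1 CPM (-0.21, SE 0.0517, adjusted p = 0.021). The call was lost without siCYP1B1 vehicle 2 or 3 or siCYP1B1 16aOHE 2 or 3, and with only the groups of the comparison. The siRNA average had an interval of -0.059 to 0.065. Col7a1, the chain of anchoring fibrils, stood at 2.45, 1.13 and 1.14 CPM in scrambled vehicle, 2.45, 1.83 and 1.24 with E2 and 4.58, 1.92 and 1.88 with 16aOHE, and at 3.17, 2.85 and 3.11 CPM with vehicle, 5.53, 4.09 and 2.55 with E2 and 3.34, 2.59 and 2.87 with 16aOHE in siCYP1B1. It was higher in the siRNA average (0.54, SE 0.140, adjusted p = 0.00355). The library numbered 1 was the highest of its group in 6 of 6 groups for Col7a1, Col9a3 and Col16a1. For Col11a2 and Col20a1, which rose with E2, it was the highest in 5 of 6. This pattern was singled out after the values were seen. The siRNA call on Col7a1 under vehicle was lost in 9 settings that included leaving out scrambled vehicle 2 or 3 or any siCYP1B1 vehicle library. That under E2 was lost without scrambled E2 2 or 3 or siCYP1B1 E2 1 or 2. Under 16aOHE Col7a1 was not called (0.12, adjusted p = 0.785).

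**Figure D4:**
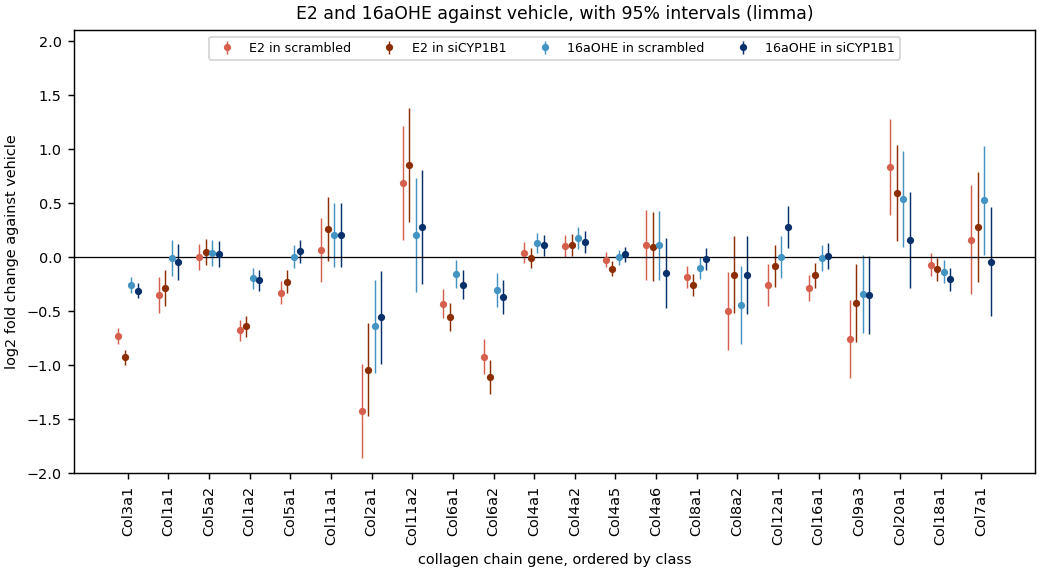
Log2 fold changes of CPM + 1 against vehicle for E2 and 16aOHE in scrambled and siCYP1B1 cells, for the 22 tested collagen genes ordered by class, with 95% intervals. Col3a1, Col1a2 and Col6a2 lay below 0 in all 4 comparisons with E2 farther from 0, and the intervals were widest for genes near 1 CPM such as Col2a1 and Col11a2.

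The 2 estrogens were compared directly at 1 uM and 24 hours. In structure 16aOHE has a ketone at a position that bears a hydroxyl in estradiol, and an added hydroxyl beside it. Collagen levels were higher with 16aOHE than with E2 for 8 of 22 genes in scrambled cells (6.78% of all genes were higher) and 10 of 22 in siCYP1B1 cells (6.59%). None was lower, while 11.6% and 11.8% of all genes were. The all-gene balance turned with median-of-ratios scaling, from 802 higher and 1378 lower to 1160 and 946 in scrambled cells and from 780 and 1391 to 1186 and 816 in siCYP1B1 cells. With quantile normalization it was 968 and 991 in scrambled and 958 and 885 in siCYP1B1 cells. No collagen gene was lower under either scaling. This comparison shares its E2 libraries with that of E2 against vehicle. All 8 genes in scrambled cells and 9 of the 10 in siCYP1B1 cells were also lower with E2 against vehicle. The 7 genes higher in both siRNAs, which share no library here, were Col1a1, Col1a2, Col3a1, Col5a1, Col6a1, Col6a2 and Col16a1. For this overlap, too, the count over all genes was not made. Col6a2 differed by 0.61, SE 0.0761, adjusted p = 1.15e-05 in scrambled and 0.74, SE 0.0761, adjusted p = 9.97e-07 in siCYP1B1 cells. Col3a1 differed by 0.47, SE 0.0337, adjusted p = 1.1e-08 and 0.62, SE 0.0337, adjusted p = 9.91e-11, and Col1a2 by 0.48, adjusted p = 1.02e-06 and 0.42, adjusted p = 2.39e-06. Col2a1 was higher in scrambled cells (0.79, adjusted p = 0.0108), a call lost without scrambled 16aOHE 1. In siCYP1B1 cells Col4a5, Col8a1 and Col12a1 were also higher (0.13, adjusted p = 0.00738 for Col4a5, 0.24, adjusted p = 0.00154 for Col8a1 and 0.36, adjusted p = 0.00977 for Col12a1). The call on Col12a1 was lost without siCYP1B1 E2 1 or siCYP1B1 16aOHE 2. In siCYP1B1 cells that on Col16a1 was lost in 6 settings and that on Col1a1 in 7, among them without siCYP1B1 E2 2 or 3 or siCYP1B1 16aOHE 1 or 2.

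For other chains no difference between the estrogens passed the test. In scrambled cells the interval of the difference was -0.0035 to 0.19 for Col4a1, -0.029 to 0.17 for Col4a2 and -0.083 to 0.16 for Col5a2. Low genes had wide intervals, such as -1.01 to 0.050 for Col11a2. The fold changes of E2 and 16aOHE against vehicle share their vehicle libraries. Side by side in scrambled cells, Col3a1 had -0.73 and -0.26, Col6a2 -0.92 and -0.31, Col1a2 -0.68 and -0.20, and Col5a1 -0.33 and 0.0037.

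Whether the estrogen changes differed between scrambled and siCYP1B1 cells was tested by interaction terms, and limma called 0 collagen genes and 0 of all 11835 genes (0%) in either direction for both estrogens. At an unadjusted p under 0.05 there was 1 collagen gene for each estrogen, and 470 genes in all for E2 and 596 for 16aOHE. The gene for E2 was Col3a1, with -0.20 (SE 0.0477, adjusted p = 0.7). For 16aOHE it was Col12a1, with 0.28 (SE 0.132, adjusted p = 0.966). Both were singled out after their values were seen.

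Chains that form 1 trimer changed by unequal amounts, which is described here by ratios of CPM per kilobase without a test. The ratio of Col1a1 to Col1a2 was 3.82 to 3.90 in scrambled vehicle, 4.62 to 5.27 in scrambled E2 and 4.09 to 4.61 in scrambled 16aOHE. In siCYP1B1 it was 4.24 to 4.69 with vehicle, 5.44 to 5.97 with E2 and 4.65 to 5.57 with 16aOHE. It was highest in the E2 libraries of each siRNA, apart from 1 siCYP1B1 16aOHE library at 5.57. Col6a1 to Col6a2 was 3.70 to 4.09, 5.41 to 5.78 and 4.28 to 4.53 in the scrambled groups, and 4.20 to 4.35, 6.08 to 6.67 and 4.49 to 4.83 in siCYP1B1. Col5a1 to Col5a2 was 0.264 to 0.270 in scrambled vehicle, 0.203 to 0.228 in scrambled E2, 0.318 to 0.327 in siCYP1B1 vehicle and 0.260 to 0.272 in siCYP1B1 E2. This ratio was lower with E2 and higher with siCYP1B1, and the remaining groups had 0.251 to 0.269 (scrambled 16aOHE) and 0.305 to 0.348 (siCYP1B1 16aOHE). Col4a1 to Col4a2, the pair with the shared start region printed above, was 1.62 to 1.64 in scrambled vehicle, 1.52 to 1.64 in scrambled E2 and 1.56 to 1.60 in scrambled 16aOHE. In siCYP1B1 it was 1.60 to 1.63 with vehicle, 1.45 to 1.51 with E2 and 1.53 to 1.61 with 16aOHE, so that the siCYP1B1 E2 libraries lay below all others. The products of Col4a5 and Col4a1 do not join in 1 trimer, and their ratio compares genes of collagen IV and not partner chains. Col4a5 to Col4a1 was 0.444 to 0.487 in scrambled vehicle and 0.350 to 0.378 in siCYP1B1 vehicle.

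**Figure D5:**
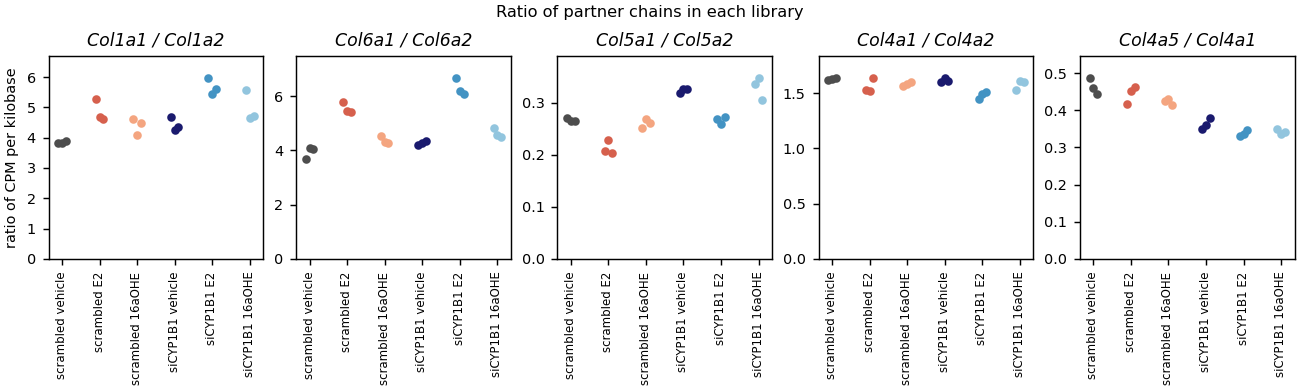
Ratio of CPM per kilobase of partner chains in each library, 3 libraries per group, on axes that start at 0. The last ratio, Col4a5 to Col4a1, is of chains that do not join in 1 trimer. The ratios of Col1a1 to Col1a2 and of Col6a1 to Col6a2 reached at most 5.97 and 6.67 in siCYP1B1 E2, while Col4a1 to Col4a2 ranged from 1.45 to 1.64 and was lowest in siCYP1B1 E2, at 1.45 to 1.51.

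Neighbouring collagen genes were compared by value. Col3a1 and Col5a2 lie tail to tail on chromosome 1 with 24624 bases between them, and E2 lowered Col3a1 while the interval for Col5a2 spanned 0 in both siRNAs. Col6a2 and Col6a1 lie on the same strand of chromosome 10 with 85161 bases between them, and both fell with E2. Col18a1 lies 326134 bases farther on, and E2 gave it intervals of -0.18 to 0.039 in scrambled and -0.22 to -0.0034 in siCYP1B1 cells.

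The 13 low genes were Col15a1, Col27a1, Col22a1, Col6a3, Col5a3, Col14a1, Col23a1, Col4a3, Col17a1, Col24a1, Col4a4, Col10a1 and Col6a5, with means of 0.902 CPM down to 0.0285 CPM. Of these, 6 had reads in all libraries, and Col10a1 had none in 11 and Col6a5 none in 10 of 18. Col15a1, the second multiplexin, stood at 2.25, 1.51 and 1.01 CPM in scrambled vehicle, 0.263, 0.407 and 0.386 with E2 and 1.18, 0.936 and 0.684 with 16aOHE. In siCYP1B1 it stood at 1.19, 1.21 and 1.24 CPM with vehicle, 0.770, 0.412 and 0.487 with E2 and 1.28, 0.425 and 0.597 with 16aOHE. The scrambled E2 libraries were the lowest and did not overlap with scrambled vehicle. With no filter on low values, limma gave E2 a log2 fold change of -0.91 in scrambled (adjusted p = 0.000496) and -0.51 in siCYP1B1 cells (adjusted p = 0.0322), and 16aOHE against E2 0.51 in scrambled cells (adjusted p = 0.0469). No other low gene was called in any comparison without the filter. A further 9 collagen symbols (Col6a4, Col6a6, Col9a1, Col9a2, Col13a1, Col19a1, Col25a1, Col26a1 and Col28a1) had no row and were not analysed here.

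Genes that make, cut and bind collagen were counted from lists. For reading these counts, 18.2% of all genes were lower and 26.5% higher in the siRNA average, 11.4% and 18.6% with E2 in scrambled cells, and 2.08% and 1.76% with 16aOHE in scrambled cells. Of 22 tested genes of collagen folding, modification and export, 14 were lower and 4 higher in the siRNA average. Lower genes included Plod2, a lysyl hydroxylase (-0.40, adjusted p = 5.69e-13), and Fkbp14, a prolyl isomerase of the endoplasmic reticulum (-0.40, adjusted p = 1.85e-07), whereas Serpinh1, the collagen chaperone HSP47, was higher (0.088, adjusted p = 0.00304). With E2 in scrambled cells 5 fell and 5 rose. P3h4, a partner of the collagen-modifying hydroxylases, fell (-0.79, adjusted p = 3.16e-11), as did Fkbp10 (-0.28, adjusted p = 7.05e-07), and Plod1, a lysyl hydroxylase, rose (0.43, adjusted p = 3.29e-06). With 16aOHE in scrambled cells P3h4 fell (-0.42, adjusted p = 1.81e-06), and Plod1 (0.19, adjusted p = 0.0449) and Mia3, which helps load procollagen for export (0.14, adjusted p = 0.0202), rose. The call on Plod1 with 16aOHE was lost with both other scalings.

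Of 12 tested genes of propeptide removal and crosslinking, 6 were lower (18.2% of all genes) and 1 higher (26.5%) in the siRNA average. The lysyl oxidases Loxl1 (-0.78, adjusted p = 1.49e-09) and Lox (-0.49, adjusted p = 5.7e-07) and the transglutaminase Tgm2 (-0.52, adjusted p = 3.67e-10) were lower, and Pcolce, an enhancer of procollagen cleavage, was higher (0.13, adjusted p = 4.7e-05). With E2 in scrambled cells 5 fell (11.4%) and 2 rose (18.6%), with Pcolce2 at -0.74, adjusted p = 3.17e-06, Lox at -0.50, adjusted p = 0.00059 and Adamts3, a procollagen N-proteinase, at 0.76, adjusted p = 3.8e-06. With 16aOHE Pcolce2 (-0.32, adjusted p = 0.0476) and Loxl3 (-0.18, adjusted p = 0.0272) fell and Adamts3 rose (0.87, adjusted p = 4.24e-06), the call on Pcolce2 being lost with quantile normalization. Tgm2 was thus lower with siCYP1B1 and higher with E2 (0.25, adjusted p = 0.00582).

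Of 9 tested collagen receptors 6 were lower (18.2% of all genes) and 0 higher (26.5%) in the siRNA average, among them the integrin chain gene Itga10 (-0.40, adjusted p = 6.34e-05) and the syndecan Sdc4 (-0.28, adjusted p = 7.73e-10). E2 in scrambled cells lowered 3, Itga10 (-0.47, adjusted p = 0.00445), Cd44 (-0.25, adjusted p = 0.000355) and Ddr1 (-0.10, adjusted p = 0.0271; lost with quantile normalization), and raised Ddr2 (0.15, adjusted p = 0.00556), a receptor for fibrillar collagen. 16aOHE changed 0 of 9 in scrambled cells, where 2.08% of all genes fell and 1.76% rose, with 3 of the 9 at an unadjusted p under 0.05. Of 12 degradation genes 6 were lower (18.2%) and 2 higher (26.5%) in the siRNA average, led by the inhibitors Timp3 (-0.41, adjusted p = 1.64e-11) and Timp2 (-0.37, adjusted p = 2.14e-13). E2 in scrambled cells raised 5 (18.6% of all genes rose), among them the collagenase Mmp13 (0.72, adjusted p = 0.000676) and the stromelysins Mmp3 (0.68, adjusted p = 0.000171) and Mmp10 (0.60, adjusted p = 0.0053), and lowered Timp1 (-0.36, adjusted p = 7.4e-06), Mmp2 (-0.33, adjusted p = 0.00122) and Timp3 (-0.23, adjusted p = 0.000249). 16aOHE raised Mmp3 (0.77, adjusted p = 0.000317) and Mmp10 (0.60, adjusted p = 0.0272) and lowered 0 of 12.

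Of 14 tested laminins and other partners of collagen in the matrix, 8 were lower (18.2% of all genes) and 2 higher (26.5%) in the siRNA average. The fibronectin gene Fn1 (-0.54, adjusted p = 6.06e-09), the laminin chain Lamb3 (-0.50, adjusted p = 0.00541) and Sparc, a collagen-binding protein (-0.22, adjusted p = 8.5e-08), were lower. Nid1 (0.15, adjusted p = 3.63e-05) and Nid2 (0.091, adjusted p = 0.0336), the nidogens that link collagen IV to laminin, were higher in that comparison, as Col4a1 and Col4a2 were, and the call on Nid2 was lost with both other scalings. E2 in scrambled cells lowered 3, Sparc (-0.22, adjusted p = 0.000208), Nid2 (-0.19, adjusted p = 0.0176) and Nid1 (-0.14, adjusted p = 0.0139), and raised 0, against 11.4% and 18.6% of all genes. 16aOHE raised the laminin chain Lamc1 (0.19, adjusted p = 0.0374; lost with median-of-ratios scaling) and lowered 0 of 14, with 3 of the 14 at an unadjusted p under 0.05.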

How the data were processed

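RNA was measured by sequencing in 18 libraries, 6 groups of 3 taken from the labels. The authors deposited 1 table of CPM for 15288 genes, with an offset of 1e-04 on every value, as the column sums of 1000001.5 to 1000001.6 show. TopHat2, Partek and mm10 are named per the submitters' processing notes. Not given in the sources used here: versions, annotation, strandedness, filters. The spacing of low values gave what 1 read was worth in each library (1 CPM is 14.1 to 38.5 reads). Of values of 1 to 20 reads, 94.3% to 95.7% came out whole within 0.1 reads, and since the rest did not, the values were not treated as counts. Gene ends in the table were written with the stop reduced by 1, which equalled the RefSeq end for 56.7% of 14898 matched symbols, against 4.13% as listed. No columns were identical.

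Values were tested as log2(CPM + 1), on which scale every fold change is given and which understates changes of low genes. The 11835 genes averaging 1 CPM or more were fitted in R 4.3.3 by limma 3.58.1 (lmFit, then eBayes using the mean trend), with 1 coefficient per group, 95% intervals and Benjamini-Hochberg adjustment over all genes tested within each contrast at 0.05. All adjusted p-values are from this fit. Library numbers, in accession order, are names only. Collagen genes described with values were the 6 of highest mean, Col2a1, Col8a1 and Col15a1, those of largest change in each comparison, and then the remaining called genes, chosen after their values were seen. The members and gene lists were chosen with earlier results of these data known, and genes named from the lists after their values were seen. Per-kilobase levels use GENCODE M21 transcript lengths, and 3′ UTRs those of the longest coding transcript. Alternatives were other pseudocounts (0.1 and 5), filters, scalings, fits without the mean trend or on the compared groups only, and leaving out each library.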

Additional observations from a re-analysis of the deposited data

How the results depend on the processing

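Of 103 calls on a collagen gene in a comparison, 78 held in every alternative run that tested the gene. The other 25 were lost in at least 1 run, and 0 changed sign. Genes averaging under 5 CPM were absent from the run with a filter at 5 CPM, so their calls were not tried there. Counts of called genes stayed within 1.5 times the reported one except for 16aOHE. In scrambled cells that count was 4, and 1 without the mean trend. Leaving out 1 library gave 1 to 3 there, and 3 to 8 for 16aOHE in siCYP1B1 cells, reported as 5. Their cause was not tested. Left-out libraries gave 10 to 12 calls for the siRNA in vehicle, 9 to 11 in E2, 9 to 12 in 16aOHE and 15 to 16 averaged, 11 to 13 and 9 to 10 for E2 in scrambled and siCYP1B1, 7 to 9 and 8 to 10 for 16aOHE against E2, and 0 for both interactions. With median-of-ratios scaling the siRNA in vehicle gave 0 higher and 10 lower in place of 3 and 10, and 16aOHE in scrambled cells 0 and 3 in place of 1 and 3; quantile normalization gave 2 and 3. No paired analysis was possible because the labels carry no replicate numbers. The library numbers follow accession order, and whether they mark a block shared across groups is not known. Genes near 1 CPM rest on about 14.1 to 38.5 reads per CPM, and their intervals are the widest.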
